A study of Homo sapiens with 2 samples.

Results

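The proteasome is the protease that degrades ubiquitin-tagged proteins in the cytosol and nucleus. Its core particle is a barrel of alpha rings (PSMA genes), which form the gate, and beta rings (PSMB genes), of which PSMB5, PSMB6 and PSMB7 carry the catalytic sites. The regulatory particle consists of a base, with the ATPases (PSMC genes) that unfold substrates, and a lid that removes ubiquitin (PSMD genes). The PSME genes encode alternative activators, PSMF1 an inhibitor, and the PSMG genes chaperones of core assembly. Proteasome subunit genes are known to be transcribed in a coordinated way, with the factor NFE2L1 raising them when proteasome activity is low. Cells exposed to interferon exchange the catalytic subunits for PSMB8, PSMB9 and PSMB10, which were set beside the constitutive genes here and not counted among them.

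Members were all genes whose symbol is PSMA, PSMB, PSMC, PSMD, PSME, PSMF or PSMG with a number, other than PSMB8, PSMB9 and PSMB10. This gave 36 genes with 59 probe sets, of 11963 genes that had a probe set with a single gene symbol. Where a gene had several probe sets the brightest was used, and all 36 genes had a mean signal of at least 650 on the deposited scale. A list of 45 subunits and chaperones of these families held 9 more genes that were not analysed here. PSMA6 and PSME2 were left out because their probe sets carry several symbols, and no probe set was named PSMA8, PSMB11, PSMC5, PSMD7, PSMD13, PSMG3 or PSMG4.

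The data come from L-428, an established Hodgkin's lymphoma (HL) cell line, on 2 Affymetrix HG_U133A microarrays. One array holds RNA of cells transfected with pcDNA6.2-GW/EmGFP-miR-neg, the vector control, which the labels also call an empty vector. The other holds RNA of cells transfected with pcDNA6.2-GW/EmGFP-miR-DUSP5, which encodes an artificial microRNA directed at DUSP5, a phosphatase of ERK (knock-down). The vectors differ in the microRNA, both carry EmGFP, and the time after transfection of the cells on the arrays and the share of transfected cells are not given in the sources used here. DUSP5 itself had signals of 628 in control and 368 in knock-down cells, a log2 ratio (knock-down over control) of -0.77 (SD 0.41, 1 probe set).

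Each condition has 1 array, so the spread between cultures is unknown and no test was run. As error, a log2 ratio carries the standard deviation (SD) that probe sets of a shared gene showed at its brightness. Only pairs of probe sets in the same band of mean signal were used. Differences between a bright and a dim probe set in different bands thus do not enter this SD. This SD was 0.36 at mean signals of 500 to 1000, 0.30 from 1000 to 3000 and 0.26 above 3000. A gene was called higher or lower at a 1.5-fold difference, a log2 ratio of 0.58, provided that its mean signal reached 200. Of 6 markers of Hodgkin and Reed-Sternberg cells, 5 had a signal of at least 200 on both arrays, and CCL22 did not. TNFRSF8 (CD30) had a signal of 1724 on the control and 3618 on the knock-down array. Of 18 markers of B, T, myeloid and natural killer cells with a value, only PAX5 (268 and 211) reached 200 on both arrays. In bulk RNA, a different number of cells of a type and a different amount of RNA per cell cannot be told apart.

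On the knock-down array 12 of the 36 proteasome genes were at least 1.5-fold higher, 1 was at least 1.5-fold lower and 23 lay between. Of all 6301 measured genes 15.6% were that much higher and 19.0% that much lower. The 12 genes were PSMA5, PSMB1, PSMB3, PSMB6, PSMC3, PSMD1, PSMD2, PSMD4, PSMD6, PSMD8, PSME1 and PSMG1, and the lower gene was PSMG2. At least 2-fold higher were 6 genes, against 4.38% of all measured genes. None of the 36 was at least 2-fold lower, against 7.30% of all measured genes, but PSMG2 (-0.99) was past that size after quantile normalization (-1.07), the lowess fit (-1.09) and centring (-1.12). The median log2 ratio was 0.33 over the 36 genes and 0.01 over all measured genes. Of the 36 log2 ratios 30 were above 0 and 6 below, and 21 were higher and 2 lower by more than the SD between probe sets. Of all measured genes 3176 were above and 3125 below 0, and 26.8% were higher and 28.9% lower by more than this SD.

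**Figure D1:**
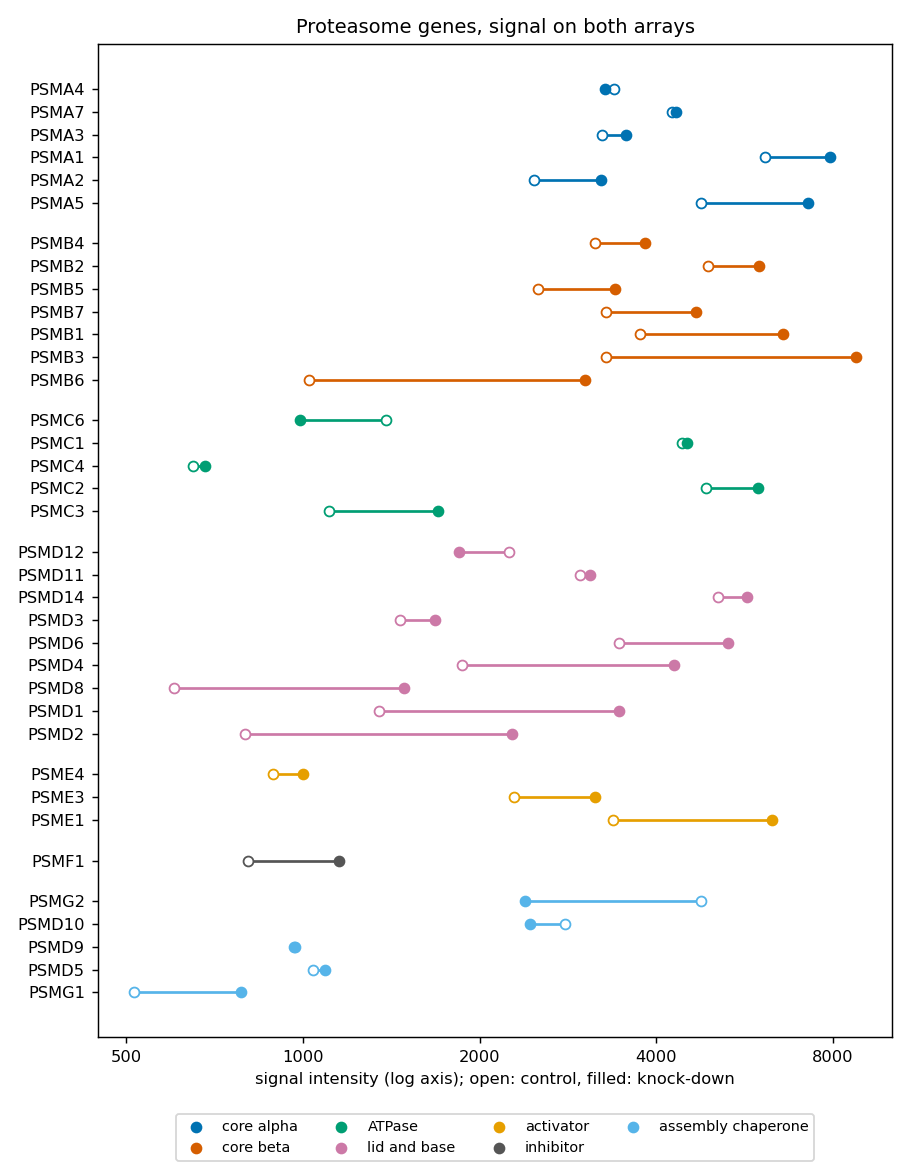
Signal intensity (log axis) of 36 proteasome genes on the control array (open circles) and the knock-down array (filled circles), 1 array each, with a line joining both values of a gene and colour giving the subunit class. The longest lines belong to PSMB6, PSMB3 and the base and lid genes PSMD2, PSMD1, PSMD8 and PSMD4, and PSMG2 runs the other way.

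Part of this difference moved with signal. A lowess fit over all probe sets was -0.07 at a mean log2 signal of 9.5, and from there it increased with brightness to 0.07 at 11.5 and 0.25 at 12.7, near the brightest proteasome gene. The proteasome genes were bright, with a median of their mean signals of 2991 against 708 over all measured genes. At mean signals from 3000 upwards, 6 of 18 proteasome genes were higher and 1 was lower. At that brightness 24.1% of all 667 genes were higher and 8.85% lower, and the median log2 ratios were 0.29 and 0.21. After subtraction of the lowess fit, 10 of the 36 genes were higher and 1 lower, against 15.5% and 18.1% of all measured genes. The median was then 0.23 against 0.01 over all measured genes. Centring on the median of all probe sets gave 8 higher and 2 lower genes, against 11.0% and 24.1% of all measured genes. Leaving out the probe set types _s_at and _x_at left 23 genes with 8 higher and 2 lower, against 14.5% and 21.3% of all genes measured in this way. Of the 12 genes, 8 were at least 1.5-fold higher also after quantile normalization, the lowess fit, centring, addition of 32 and averaging of probe sets. These were PSMB1, PSMB3, PSMB6, PSMD1, PSMD2, PSMD4, PSMD8 and PSME1. The share of all higher genes that stayed higher under the same alternatives is not given here, so this count has no background. Without the probe set types _s_at and _x_at, PSMB1, PSMD1 and PSMD4 were no longer measured.

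**Figure D2:**
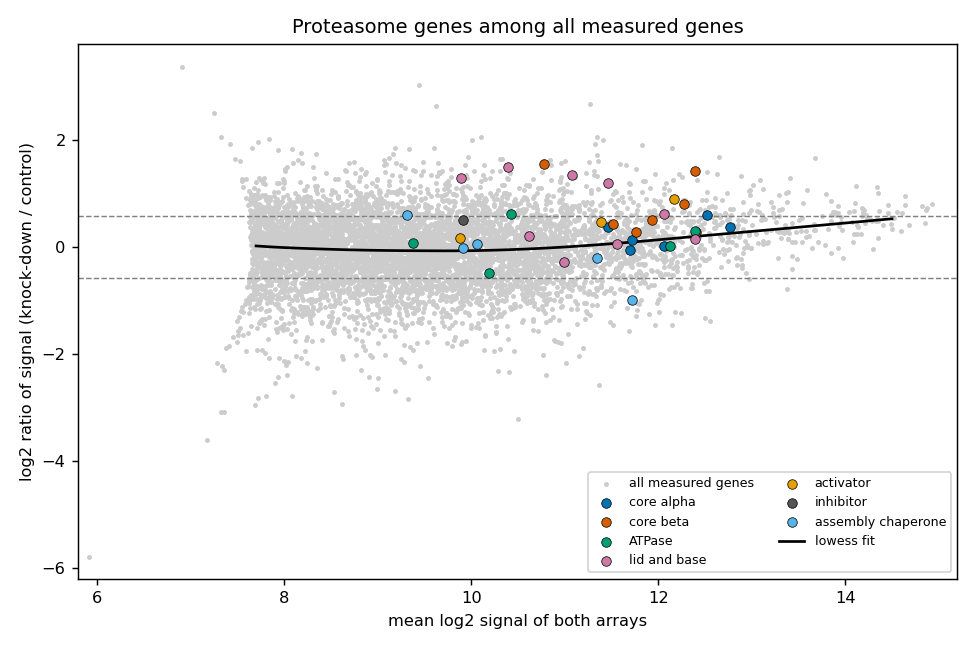
The vertical axis gives the log2 ratio (knock-down / control) and the horizontal axis the mean log2 signal, for 6301 measured genes (grey) and 36 proteasome genes (coloured by class). The black line is the lowess fit over all probe sets and the dashed lines mark a 1.5-fold difference. Core alpha genes lie to the right, as does PSMB3. PSMB3, PSMB6, PSMD1, PSMD2, PSMD4 and PSMD8 lie more than 1 log2 unit above the lowess fit.

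The classes differed in their medians. From the highest, the median log2 ratio was 0.62 for the 9 lid and base genes, 0.51 for the 7 core beta genes, 0.46 for the 3 activators, 0.25 for the 6 core alpha genes, 0.07 for the 5 ATPases and -0.01 for the 5 assembly chaperones. With the lowess fit subtracted these medians were 0.47, 0.38, 0.41, 0.07, 0.10 and 0.06 in the same order. The order of core beta genes and activators, and that of the lowest 3 classes, thus changed with the treatment of signal. Lid and base genes also ranked first after quantile normalization, centring, addition of 32 and averaging of probe sets. Their first rank was lost without the types _s_at and _x_at. Medians were then 0.53 for 2 activators, 0.51 for 5 core beta genes and 0.41 for 6 lid and base genes. Restricted to mean signals from 1000 upwards, 2 activators (0.68) again passed the 9 lid and base genes (0.62). Genes of a class are not replicates, and the differences between classes were not tested.

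**Figure D3:**
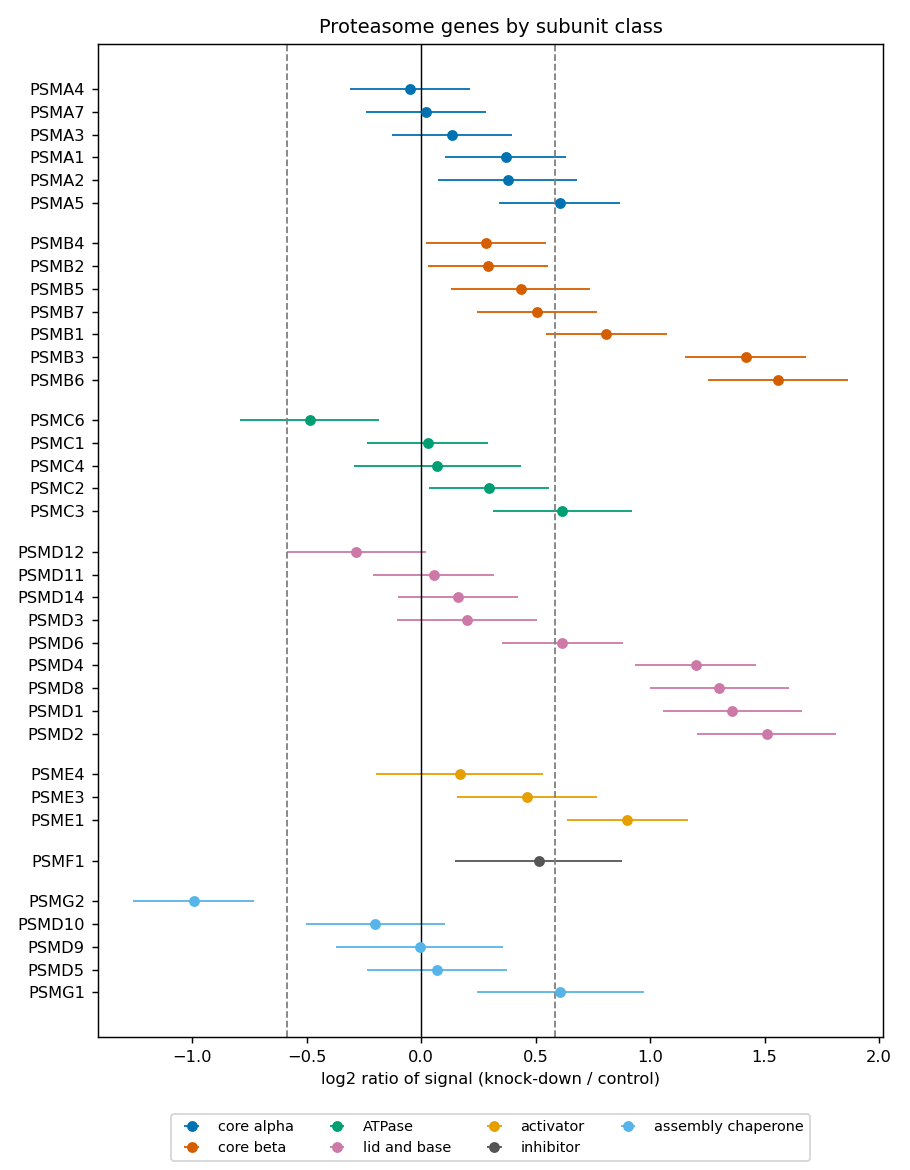
Log2 ratio of signal (knock-down over control, 1 array each) of 36 proteasome genes in 7 classes. Bars are 1 SD as defined for probe sets in the text, and dashed lines mark a 1.5-fold difference. All 7 core beta genes lie to the right of 0 by more than their bars, and PSMG2 alone lies beyond the left dashed line.

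Promoter sequences are shown for the 4 genes with the highest log2 ratios that have an entry in the RefSeq promoter table. Of the genes with an entry, these differed most between the arrays. PSMB6, with the highest log2 ratio of all 36 genes (1.56), has no entry and is not shown. The entries are of assembly GRCh38.p14 and were found for 31 of the 36 genes. Each line gives 250 bases that end directly before the annotated transcription start, 5′ to 3′ on the plus strand. Capitals mark matches on either strand to TGACNNNGC (NFE2L1 and related factors), CCAAT (NF-Y), CCGGAAG (ETS family) or CCATCTT (YY1). PSMD2 has 2 annotated starts, of which the one farther upstream is shown at chr3:184298991-184299240. The others are PSMB3 at chr17:38752491-38752740, PSMD1 at chr2:231056617-231056866 and PSMD8 at chr19:38374321-38374570.
PSMD2: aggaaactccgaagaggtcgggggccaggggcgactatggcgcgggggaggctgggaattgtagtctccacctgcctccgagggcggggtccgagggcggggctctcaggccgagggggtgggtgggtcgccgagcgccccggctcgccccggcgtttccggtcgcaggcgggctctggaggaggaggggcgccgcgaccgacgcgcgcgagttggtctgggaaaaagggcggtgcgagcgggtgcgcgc
PSMB3: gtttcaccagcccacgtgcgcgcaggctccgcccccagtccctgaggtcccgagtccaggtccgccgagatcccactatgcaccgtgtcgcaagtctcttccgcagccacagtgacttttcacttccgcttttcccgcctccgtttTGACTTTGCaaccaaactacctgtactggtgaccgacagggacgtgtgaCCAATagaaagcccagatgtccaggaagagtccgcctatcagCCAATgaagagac
PSMD1: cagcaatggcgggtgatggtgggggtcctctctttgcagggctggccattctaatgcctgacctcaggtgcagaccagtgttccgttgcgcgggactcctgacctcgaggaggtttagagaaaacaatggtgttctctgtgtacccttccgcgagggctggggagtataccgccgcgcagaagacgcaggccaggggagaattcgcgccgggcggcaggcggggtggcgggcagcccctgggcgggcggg
PSMD8: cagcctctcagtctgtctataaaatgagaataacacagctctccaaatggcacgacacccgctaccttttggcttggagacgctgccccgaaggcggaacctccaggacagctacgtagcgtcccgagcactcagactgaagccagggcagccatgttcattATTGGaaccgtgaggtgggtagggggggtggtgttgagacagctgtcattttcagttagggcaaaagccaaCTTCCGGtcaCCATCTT

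In these windows PSMB3 holds 1 match to TGACNNNGC at position -104 from the start and 2 to CCAAT. PSMD8 holds 1 match to CCAAT at position -88. It also holds CCGGAAG at -17, on the minus strand. CCATCTT begins there at -7. Neither PSMD2 nor PSMD1 holds a match in the bases shown. PSMD1 holds TGACNNNGC at position 40, which lies past the start and within the window used for counts. For counts the whole window of 300 bases, which runs 50 bases past the start, was searched on both strands in 37 windows of the 31 genes, and the motifs were chosen with the ratios known. TGACNNNGC was present in 12 of these windows (32.4%), against 13.3% of all 35116 windows and 15.1% of the 7931 windows of measured genes. CCATCTT was present in 9 (24.3%), against 5.84% of all windows and 8.47% of those of measured genes. For CCGGAAG the shares were 27.0%, 10.3% and 18.1%, and for CCAAT 43.2%, 34.6% and 36.4%. GGGCGG was present in 62.2% of the proteasome windows and in 66.7% of those of measured genes. TATAAA was present in 8.11% of the proteasome windows and 6.25% of those of measured genes. For TGACGT these shares were 8.11% and 11.6%. For CACGTG they were 8.11% and 9.87%. The looser form TGANNNNGC, which includes every match to TGACNNNGC, was present in 59.5% and 42.7%. The median log2 ratio was 0.12 for the 12 genes with TGACNNNGC and 0.37 for the 19 without it. For CCATCTT it was 0.18 for 8 genes with and 0.30 for 23 without, and for CCGGAAG 0.17 for 10 and 0.37 for 21. For CCAAT it was 0.41 for 16 genes with and 0.07 for 15 without. Genes called higher with and without the motif numbered 4 and 5 for TGACNNNGC and 6 and 3 for CCAAT. For CCATCTT they numbered 1 and 8, and for CCGGAAG 2 and 7. Of all measured genes 15.6% were called higher. A link between motifs and log2 ratios was not tested.

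All 7 core beta genes had log2 ratios above 0, from 0.28 to 1.56, and 3 of them were called higher. Of all measured genes 15.6% were called higher, and 24.1% of those with mean signals from 3000 upwards. PSMB6, the caspase-like catalytic subunit, had a signal of 1025 in control cells and 3020 after knock-down. This 2.95-fold difference, a log2 ratio of 1.56 (SD 0.30), was the highest of all 36 genes. PSMB3, a structural subunit, had signals of 3282 and 8767, a log2 ratio of 1.42 (SD 0.26). PSMB1, also structural, had signals of 3757 and 6584 and a log2 ratio of 0.81 (SD 0.26). The other catalytic subunits differed less. PSMB7, the trypsin-like subunit, had signals of 3287 and 4667 (0.51) and PSMB5, the chymotrypsin-like subunit, 2514 and 3400 (0.44). The structural subunits PSMB2 and PSMB4 had log2 ratios of 0.29 and 0.28, just above 1 SD (0.26). With the lowess fit subtracted these were 0.09 and 0.18, below 1 SD.

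Of the inducible subunits only PSMB9 had a lower signal after knock-down, by less than 1 SD. PSMB9, which takes the place of PSMB6, had signals of 2089 and 1770, a log2 ratio of -0.24 (SD 0.30). Its difference from the log2 ratio of PSMB6 was -1.80 (combined SD 0.43). PSMB8 (920 and 1850, log2 ratio 1.01) and PSMB10 (720 and 1343, log2 ratio 0.90) were called higher. Their constitutive counterparts PSMB5 (0.44) and PSMB7 (0.51) were above 0 but under 1.5-fold. The log2 ratio of PSMB8 was 0.57 above that of PSMB5 (combined SD 0.43), and that of PSMB10 was 0.39 above that of PSMB7, within the combined SD of 0.40.

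Core alpha genes differed little. PSMA5 was the only one at least 1.5-fold higher, with signals of 4770 and 7253 and a log2 ratio of 0.60 (SD 0.26). It lay just past that size and had log2 ratios of 0.38 after subtraction of the lowess fit and 0.41 after quantile normalization. PSMA2 (0.38) and PSMA1 (0.37) were higher by more than their SD, and for PSMA1 0.11 remained after the lowess fit. PSMA3 (0.14), PSMA7 (0.02) and PSMA4 (-0.05) differed by less than 1 SD. PSMA4 was the only core alpha gene with a lower signal after knock-down, at 3385 in control cells and 3271 after knock-down.

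The ATPases, which form a ring that pulls substrates into the core, went both ways. PSMC3 had signals of 1110 and 1701, a log2 ratio of 0.62 (SD 0.30), and was the only one called higher. PSMC6 had signals of 1384 and 987, and its log2 ratio of -0.49 (SD 0.30) was the lowest of the class. PSMC2 had a log2 ratio of 0.30 (SD 0.26), and PSMC4 (0.07) and PSMC1 (0.03) differed by less than 1 SD. After centring of the ratios on the median of all probe sets PSMC3, with 0.49, was no longer past 1.5-fold, and PSMC6, with -0.61, was.

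The 3 PSMD subunits of the base were at least 2-fold higher, against 4.38% of all measured genes. PSMD2, a scaffold that binds ubiquitin-like domains, had signals of 797 and 2269, a log2 ratio of 1.51 (SD 0.30). PSMD1, the other large scaffold, had signals of 1350 and 3462, a log2 ratio of 1.36 (SD 0.30). PSMD4, a ubiquitin receptor, had signals of 1869 and 4290, a log2 ratio of 1.20 (SD 0.26). The highest log2 ratio of the 5 ATPases was 0.62. For PSMD4 its other probe sets above the minimum signal gave 0.28 and 0.60, below that of this ATPase, and only its brightest reached 2-fold. The further base subunit ADRM1, listed among the partners, had a log2 ratio of 0.61, also below it.

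The 6 lid genes had a median log2 ratio of 0.18, and 2 of them were called higher, against 15.6% of all measured genes. PSMD8 had signals of 603 and 1488 and a log2 ratio of 1.30 (SD 0.30), which set it apart from the rest of the lid. PSMD6, with signals of 3461 and 5309, had a log2 ratio of 0.62 (SD 0.26), or 0.47 with the lowess fit subtracted. The deubiquitinase PSMD14, which cuts ubiquitin chains from substrates, had signals of 5101 and 5706 and a log2 ratio of 0.16. PSMD3 (0.20), PSMD11 (0.05) and PSMD12 (-0.28) also differed by less than 1 SD.

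Among the activators PSME1, an interferon-inducible subunit of the ring that caps the core, had signals of 3377 and 6304, a log2 ratio of 0.90 (SD 0.26). PSME3, the nuclear form of this activator, had signals of 2285 and 3150, a log2 ratio of 0.46 (SD 0.30). Its 3 other probe sets gave -0.06, 0.13 and 1.73, the last at signals of 135 and 446. PSME4, a large activator of a different kind, had a log2 ratio of 0.17 (SD 0.36). The inhibitor PSMF1 had signals of 806 and 1151 and a log2 ratio of 0.51 (SD 0.36), and its other probe set gave 0.77. With the mean of both probe sets, and after quantile normalization, PSMF1 was past 1.5-fold.

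The chaperones of core assembly, which act as a pair, went in opposite directions. PSMG2 had a signal of 4765 in control cells and 2393 after knock-down. It was the only proteasome gene at least 1.5-fold lower, with a log2 ratio of -0.99 (SD 0.26). PSMG1 had signals of 515 and 786, a log2 ratio of 0.61 (SD 0.36), which was 0.48 after centring on the median and under 1.5-fold with 32 added to each signal. The base chaperones PSMD5 (0.07), PSMD9 (-0.01) and PSMD10 (-0.20) differed by less than 1 SD.

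Probe sets of the same gene did not always go the same way. Of 15 proteasome genes with several probe sets at a mean signal of at least 200, 9 (60.0%) had all log2 ratios on the same side of 0, against 68.2% of 1897 genes in all. PSMD1 was the only one with every probe set at least 1.5-fold higher, at 1.36 and 1.43. How many of all genes had this is not given here. PSMB1 missed this closely, with 0.81 and 0.58. In 3 of the 15 genes, PSMC2, PSMD12 and PSMA7, the dimmer probe set was at least 1.5-fold lower. Of the 1897 genes in all, 576 had a probe set that much lower. PSMC2 had log2 ratios of 0.30 and -1.01, PSMD12 of -0.28 and -1.35, and PSMA7 of 0.02 and -0.82. Of the called genes, PSMA5, PSMB3, PSMB6, PSMC3, PSMD2, PSMD6, PSMD8, PSME1, PSMG1 and PSMG2 had 1 probe set each. For these there was no such comparison. The probe sets used were of the type _x_at, which may bind several transcripts, for PSMA1, PSMA7, PSMD4 and PSME3.

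**Figure D4:**
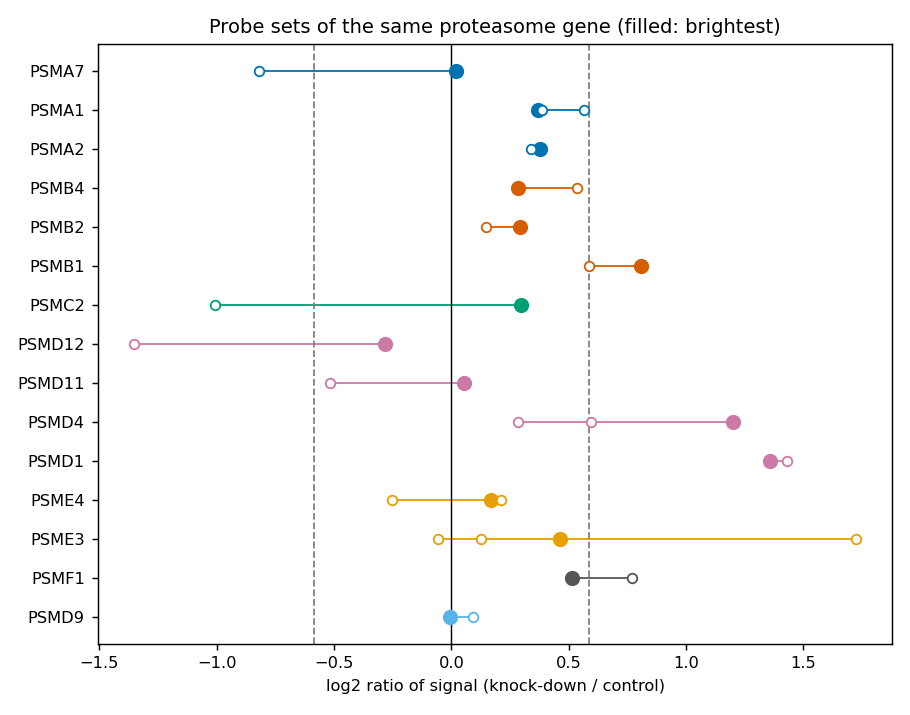
Log2 ratio (knock-down over control) of each probe set whose mean signal reached 200, for 15 proteasome genes with several such probe sets. Filled circles are the brightest probe set of a gene, open circles the others, and dashed lines mark a 1.5-fold difference. The circles of PSMD1 lie together at 1.36 and 1.43, whereas those of PSMC2 and PSME3 spread over both sides of 0.

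Of 30 listed partners of the proteasome 22 were measured, with 3 higher, 3 lower and a median log2 ratio of 0.07. Of all measured genes 15.6% were higher and 19.0% lower. NFE2L1, the transcription factor of proteasome subunit genes, had signals of 3998 in control cells and 2195 after knock-down. Its 3 probe sets gave log2 ratios of -0.86, -0.85 and -0.55. The ubiquitin receptor ADRM1 (0.61) and the deubiquitinase UCHL5 (0.87, and 1.03 at its other probe set), which bind each other on the base, were higher. VCP, the ATPase that extracts ubiquitylated proteins, had log2 ratios of 0.96 and 0.03. ECPAS, an adaptor of the proteasome, was lower at the probe set used (-0.91) and not at its others (0.02 and 0.36). ZFAND5, which binds the proteasome and ubiquitin, had -0.68 at the probe set used and -0.19 and 0.54 at the others.

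Other ring-shaped or lid-like complexes were set beside the proteasome. The COP9 signalosome and eIF3 are built from the same types of domains as the lid. Of the 9 measured COP9 signalosome genes 1 was higher and 2 lower, and the median log2 ratio was 0.22. Of 12 eIF3 genes 6 were higher, none lower, and their median was 0.60. Of 7 genes of the chaperonin CCT, which folds actin and tubulin, 6 were higher, none lower, and their median was 0.76. Of all measured genes 15.6% were higher and 19.0% lower, and at mean signals from 3000 upwards, where 6 of the 12 eIF3 and 5 of the 7 CCT genes lay, 24.1% and 8.85%. The eIF3 and CCT medians were above that of the proteasome (0.33). With 1 array per condition these differences between complexes were not tested.

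**Figure D5:**
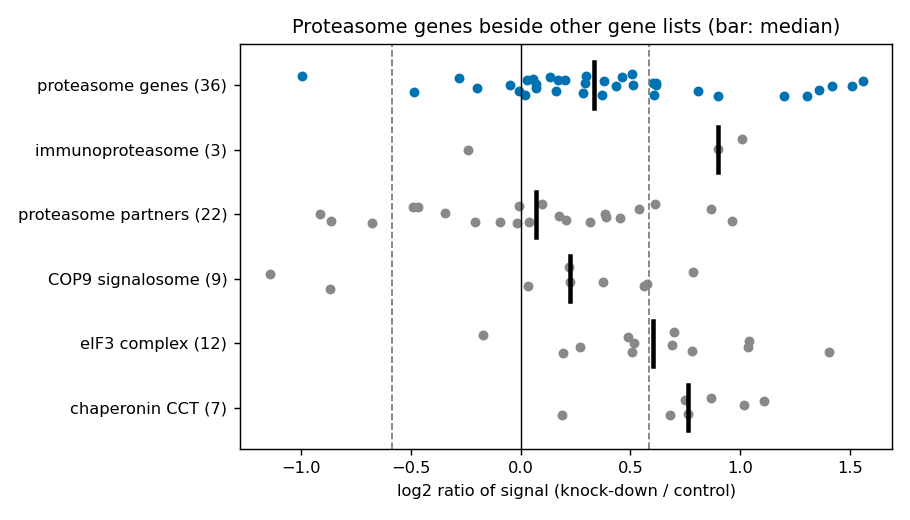
The horizontal axis gives the log2 ratio (knock-down / control, 1 array per condition) for 6 gene lists, with their measured genes in brackets. Points are genes, black bars medians, dashed lines mark a 1.5-fold difference and the vertical offset of points has no meaning. The proteasome genes spread from -0.99 to 1.56 around a median of 0.33, and the CCT genes from 0.19 to 1.11 around 0.76.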

How the data were processed

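Gene expression was measured on 2 Affymetrix HG_U133A arrays. Cel files were converted by the authors to signal intensities on a linear scale in Expression Console (MAS5), each array being scaled to a target intensity of 500. No use was made of detection calls. Genes were named from the platform annotation of 2016, and all 36 members carried the same symbol in the RefSeq table of GRCh38.p14.

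Ratios of knock-down to control signal were taken on the log2 scale without renormalization. By rule, all members, DUSP5, the immunoproteasome subunits and the partners past 1.5-fold were named. No test was run, as each condition has 1 array. Members, lists and motifs were chosen with earlier results of these data known. Alternatives were quantile normalization, centring on the median, subtraction of a lowess fit (span 0.3), 32 added to each signal, other minimum signals (none, 500, 1000 and, added after seeing the data, 3000), a 2-fold rule, the mean of all probe sets, and no _s_at or _x_at probe sets. The number of arrays limits the precision. The steps were tested on simulated data. Calculations used statsmodels 0.14.6 and scipy 1.17.1 under Python 3.11.15, with pandas 2.3.3, numpy 2.4.6 and, for plots, matplotlib 3.10.9.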

Additional observations from a re-analysis of the deposited data

How the results depend on the processing

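No paired analysis was possible because there is a single array per condition, and for the same reason no array could be left out. The direction of the median over all proteasome genes was the same under every alternative run. It was 0.26 after quantile normalization, 0.23 after subtraction of the lowess fit, 0.21 after centring, 0.38 with the mean of all probe sets and 0.28 without the types _s_at and _x_at, against 0.33 as reported. Under the first 3 of these the core alpha median was 0.10, 0.075 and 0.13, and the lid and base median was 0.52, 0.47 and 0.49. The core beta median was 0.38 both after the lowess fit and after centring. Without the types _s_at and _x_at 23 genes were left, 2 of them lower, with medians of 0.41 for lid and base and -0.49 for 3 ATPases. At a mean signal of at least 1000 the medians were 0.68 for 2 activators and -0.20 for 3 assembly chaperones. The number of lower genes was also 2 after centring and after averaging of probe sets. After centring, which moved the median of all measured genes from 0.01 to -0.12, 80.0% of the proteasome genes past 1.5-fold were higher, against 92.3% as reported. Over all measured genes that share was 31.2%, against 45.0%. The 2-fold rule, which by construction cannot add genes, left 6 proteasome genes higher and 0 lower, with 4.38% and 7.30% of all genes. At a mean signal of at least 3000, chosen after seeing the data, 6 proteasome genes were higher, with 24.1% of all genes higher and 8.85% lower. With no filter 24.6% of all genes were higher. Of 203 comparisons of single proteasome genes 194 stayed within the SD between probe sets and 9 moved further. The cause of these differences was not tested.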
